A study of Mus musculus with 22 samples.

Results

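The 10 immediate-early genes described here are Fos, Fosb, Jun, Junb, Egr1, Egr2, Egr3, Nr4a1, Myc and Dusp2, of 17023 genes to which the transcripts of the table could be assigned. The list was given by name, as genes that a B cell switches on soon after its receptor is engaged, and the counts of all transcripts that GENCODE assigns to a gene were summed. All 10 passed the filter on low counts in each of the 12 comparisons. RNA had been sequenced from 22 samples of TCL1-355 TKO, a leukemia line from the transgenic Eμ-TCL1 mouse, a model of chronic lymphocytic leukemia (CLL). The B-cell receptor (BCR) of this line is autoreactive and binds phosphatidylcholine, and the cells of every group lack functional CDKN2A and CDKN2B. NFKBIE-ko cells had been edited with CRISPR/Cas9 in Nfkbie, the gene of the NF-κB inhibitor IκBε, and NFKBIE-wt cells were mock-edited. Each genotype was propagated for 21 days in a C57BL/6 mouse of its own and then injected intraperitoneally into C57BL/6 recipients of 2 to 3 months, from which 4 spleens and 4 samples of the peritoneal cavity (PC) per genotype were taken after 10 days. Per the authors, spleen and PC cells came from the same group of recipients, so that some spleen and PC samples of a genotype share a mouse. The labels do not say which, and the tests treat these samples as unpaired. Another 3 samples per genotype were cultures of 2 weeks (in vitro) that had been started from spleen cells of 3 mice. The genotype and the mouse of propagation cannot be told apart, and neither can the compartment and the handling of its cells before RNA extraction. The spleen and PC samples were not purified and hold the host's own cells beside the leukemia, so that fewer cells of a type and less RNA per cell cannot be told apart in any value given here.

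Immediate-early genes need no newly made protein for their transcription. In B cells, antigen that binds the BCR starts calcium and kinase cascades that end on transcription factors already present in the cell, the genes are transcribed within minutes, and their short-lived RNA is lost again when the signal stops. Other signals reach the same genes, among them growth factors, Toll-like receptor ligands, adhesion and physical stress, so their RNA marks recent stimulation without naming the receptor. FOS and JUN proteins pair to form the AP-1 factor, the EGR proteins are zinc finger factors downstream of the MAP kinases, NR4A1 is an orphan nuclear receptor used as a reporter of antigen receptor signals, MYC drives growth and division, and DUSP2 is a phosphatase that switches MAP kinases off again.

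The depth was even, with 24036763 to 26581304 estimated counts per sample. The NFKBIE-wt libraries labelled spleen replicate 4 and in vitro replicate 3 went against their labels. The former correlated with the mean of its own group at r = 0.934 and with that of the NFKBIE-wt cultures at 0.981 (log2 scale, across genes), and the latter with its own group at 0.921 and with the NFKBIE-wt spleens at 0.977. Hbb-bs, a globin gene of red blood cells chosen after its values were seen, stood at 0 TMM-scaled CPM, the counts scaled to the size of each library, in the library labelled spleen replicate 4 against 75.3 to 771 CPM in the other NFKBIE-wt spleens, and at 404 CPM in the library labelled in vitro replicate 3 against 0 to 0.270 CPM in the other 5 cultures. No label was changed. Comparisons that use these libraries are given with and without them, and levels and correlations over groups without them where so stated. Nfkbie itself was lower in the NFKBIE-ko PC samples, at 53.9 ± 8.37 against 79.1 ± 9.96 CPM (SD, n = 4 each, log2 fold change -0.56 ± 0.12, adjusted p = 0.00377), which passes the adjusted p but not the fold set here. In the spleen and in vitro its log2 fold changes were 0.19 ± 0.27 and -0.93 ± 0.33 (adjusted p 0.73 and 0.517), and 0.43 ± 0.24 and -1.23 ± 0.13 without both libraries (adjusted p 0.294 and 0.0925).

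The FOS genes had the widest range of the 10. Fos (chr12:85520658-85524047, plus strand, GRCm39), the founding partner of JUN in AP-1, stood at 942, 1112 and 1259 CPM in the NFKBIE-wt spleens that match their label and at 2.24 CPM in the library labelled replicate 4. The 4 NFKBIE-ko spleens held 822, 905, 609 and 476 CPM, each below the 3 matching NFKBIE-wt spleens. In the PC, the NFKBIE-wt samples held 917, 1273, 72.0 and 210.4 CPM, and the NFKBIE-ko samples 59.3, 15.2, 32.5 and 21.6 CPM. Every NFKBIE-ko PC sample thus lay below every NFKBIE-wt PC sample and below every spleen except the library labelled NFKBIE-wt replicate 4. The cultures were close to silent, with 4.34 and 2.19 CPM in NFKBIE-wt replicates 1 and 2 and 1.84, 1.43 and 2.07 CPM in the NFKBIE-ko cultures, whereas replicate 3 as labelled for NFKBIE-wt in vitro held 969 CPM. Without both libraries, the group mean of Fos ran 622-fold from the lowest, NFKBIE-ko in vitro, to the highest, NFKBIE-wt spleen, and of the 5 pairs of neighbouring groups in that order only 1 overlapped.

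Fosb (chr7:19036621-19043976, minus strand), a close relative of Fos, followed the same order of groups with a 992-fold range, and 4 of the 5 neighbouring pairs overlapped. It stood at 993, 1197 and 1180 CPM in the NFKBIE-wt spleens other than the library labelled replicate 4, which held 2.17 CPM. The NFKBIE-ko spleens held 659, 1690, 442 and 496 CPM. These groups overlapped, with the highest sample of all among the NFKBIE-ko spleens. In the PC, Fosb stood at 498, 749, 21.2 and 69.1 CPM in NFKBIE-wt and at 12.2, 2.18, 6.29 and 5.50 CPM in NFKBIE-ko samples. The 3 NFKBIE-ko cultures held 1.09, 1.19 and 1.12 CPM, and the NFKBIE-wt cultures 2.98 and 1.11 CPM beside 792 CPM in the library labelled replicate 3. The lowest NFKBIE-ko PC sample was therefore within the range of the cultures that match their labels, and no NFKBIE-wt PC sample was.

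Jun (chr4:94937271-94940459, minus strand), the other partner in AP-1, held 657, 1236 and 1430 CPM in the NFKBIE-wt spleens and 20.8 CPM in the library labelled replicate 4. The NFKBIE-ko spleens held 919, 1336, 665 and 592 CPM. In the PC, NFKBIE-wt samples held 826, 911, 82.0 and 220 CPM and NFKBIE-ko samples 71.6, 44.6, 61.1 and 49.8 CPM, again without overlap, although the gap between the nearest samples was narrow. The cultures held 43.4 and 7.99 CPM (NFKBIE-wt) and 12.5, 12.6 and 15.1 CPM (NFKBIE-ko), beside 754 CPM in the library labelled NFKBIE-wt replicate 3. Junb (chr8:85703539-85705347, minus strand), a JUN relative that stayed above 100 CPM in every library, ranged only 3.04-fold between group means. It lay between 365 and 628 CPM in the other 3 NFKBIE-wt spleens and 400 and 481 CPM in the NFKBIE-ko spleens. In the PC it lay between 203 and 576 CPM in NFKBIE-wt and 106 and 238 CPM in NFKBIE-ko samples, and the NFKBIE-ko cultures held 135 to 175 CPM. All 5 neighbouring pairs of groups overlapped.

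The EGR genes moved less, and Egr3 moved the other way. Egr1 (chr18:34992876-34998049, plus strand) stood at 115, 134 and 236 CPM in the NFKBIE-wt spleens, at 35.4 CPM in the library labelled replicate 4, and at 202, 134, 109 and 108 CPM in the NFKBIE-ko spleens. In the PC it held 173, 192, 36.6 and 33.3 CPM in NFKBIE-wt and 91.9, 10.0, 20.0 and 18.2 CPM in NFKBIE-ko samples, with the highest NFKBIE-ko sample above the lower NFKBIE-wt samples. The NFKBIE-ko cultures lay together at 24.4, 23.8 and 25.4 CPM, below the 39.9 and 50.4 CPM of NFKBIE-wt replicates 1 and 2. Egr2 (chr10:67373692-67378018, plus strand) lay between 6.47 and 60.6 CPM over all 22 libraries, with its highest and its lowest sample in the PC. Egr3 (chr14:70314350-70319999, plus strand) had its highest group means in culture, with 43.2 and 62.6 CPM in NFKBIE-wt and 48.4, 48.7 and 50.6 CPM in NFKBIE-ko samples, against 20.2 to 26.8 CPM in the other NFKBIE-wt spleens and 19.7 to 21.9 CPM in the NFKBIE-ko spleens. In the PC it held 9.79, 20.9, 22.1 and 17.8 CPM in NFKBIE-wt and 46.3, 11.2, 21.3 and 19.1 CPM in NFKBIE-ko samples, so that NFKBIE-ko PC replicate 1 lay within the range of the cultures. The libraries that go against their labels stood apart here too, with 43.4 CPM in the one labelled spleen and 24.8 CPM in the one labelled in vitro.

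Nr4a1 (chr15:101164660-101172680, plus strand) held 80.6 to 137 CPM in the NFKBIE-ko spleens and 33.0 to 50.6 CPM in the NFKBIE-ko cultures, without overlap. The 3 other NFKBIE-wt spleens spread from 47.6 to 129 CPM and NFKBIE-wt in vitro replicates 1 and 2 held 19.3 and 88.0 CPM, so that these groups overlapped. Dusp2 (chr2:127177957-127180296, plus strand) held 141 to 244 CPM in those NFKBIE-wt spleens, 112 to 208 CPM in the NFKBIE-ko spleens, 105 to 248 CPM in the NFKBIE-wt PC, 53.6 to 161 CPM in the NFKBIE-ko PC and 58.5 to 88.7 CPM in the 5 cultures that match their labels. Myc (chr15:61857227-61862223, plus strand) was high everywhere and varied least, between 297 and 689.7 CPM over all 22 libraries, with a 1.61-fold range of the group means without both libraries. The 5 matching cultures lay within 319 to 343 CPM.

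**Figure D1:**
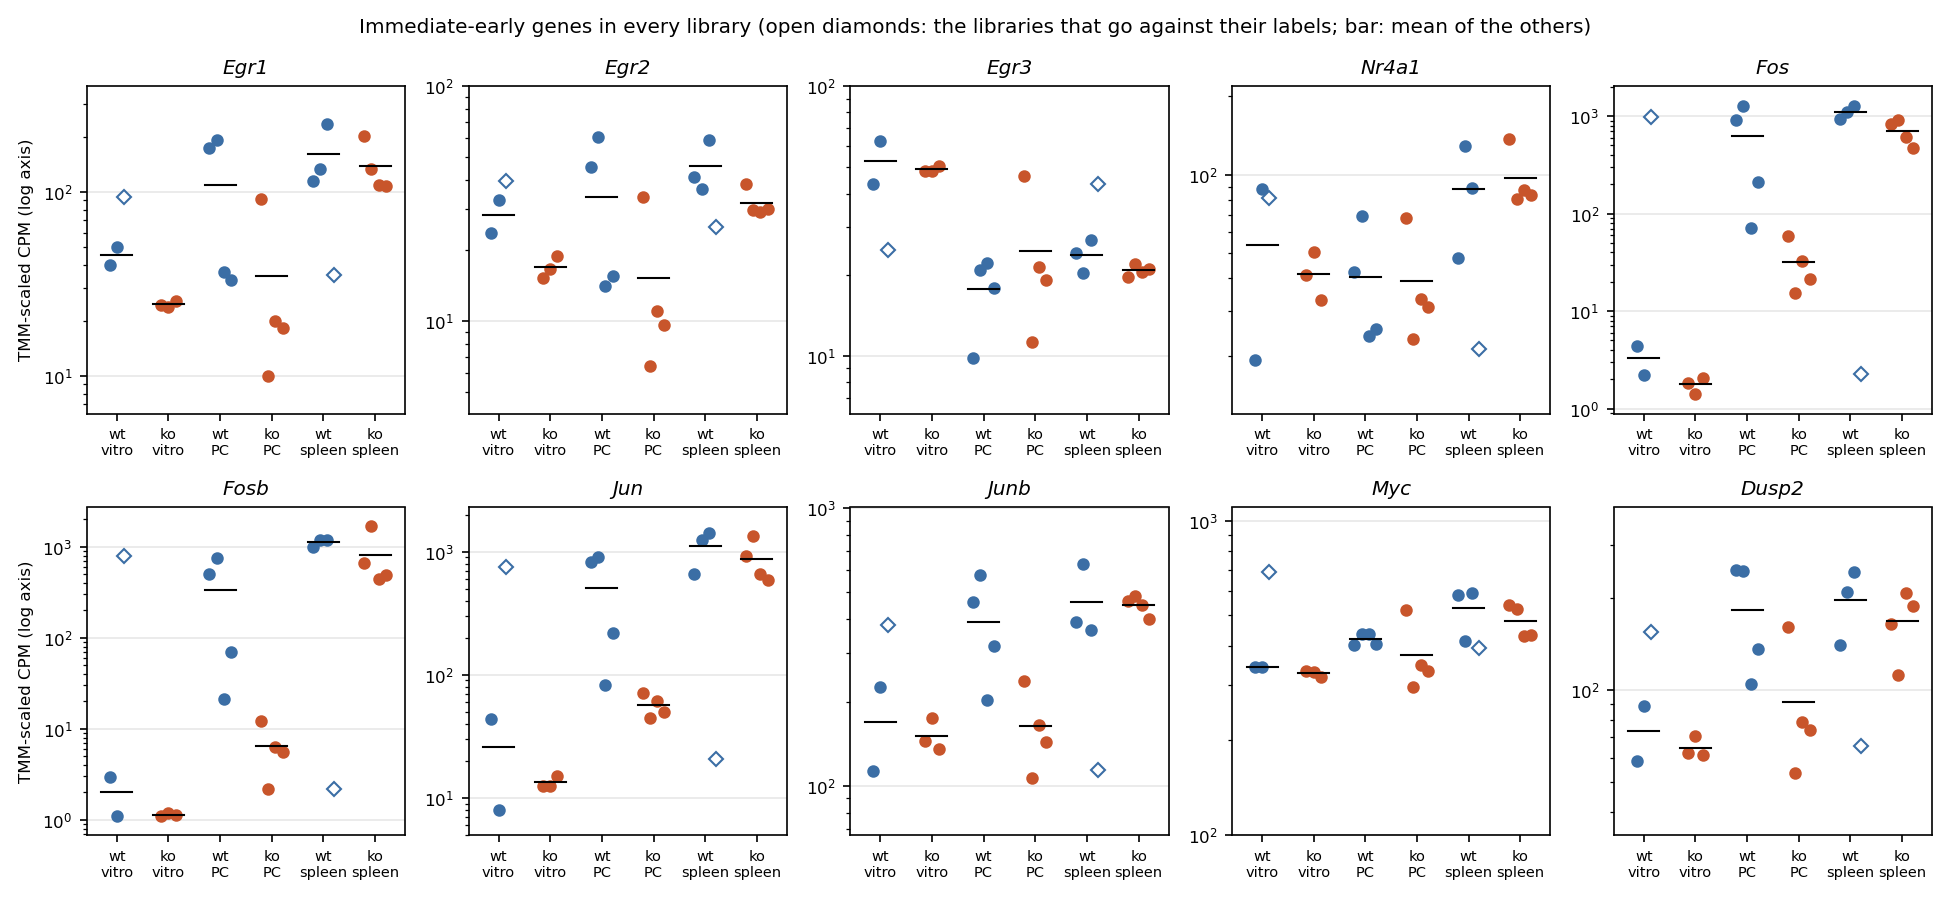
TMM-scaled CPM (log axis) of the 10 genes in every library of the 6 groups; each point is a library, bars are means without both libraries that go against their labels, and those libraries are open diamonds. Fos, Fosb and Jun step up from culture to the spleen, with 1.43 to 4.34 CPM of Fos in 5 cultures against 476 to 1259 CPM in 7 spleens, while Egr3 has its highest group means in culture.

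Levels of different genes can be compared only per length. On CPM per kilobase of transcript, and without both libraries, Myc led in the cultures with 152 ± 0.802 (NFKBIE-wt, n = 2) and 145 ± 3.77 (NFKBIE-ko, n = 3, SD), while Fos stood at 1.55 ± 0.721 and 0.942 ± 0.311 and Fosb at 0.543 ± 0.347 and 0.303 ± 0.0152. In the spleen Fos led with 555 ± 75.7 (NFKBIE-wt, n = 3) and 356 ± 117 (NFKBIE-ko, n = 4), ahead of Jun (347 ± 126 and 275 ± 105). In the NFKBIE-ko PC Myc led again with 168 ± 43.6, while Fos stood at 15.7 ± 9.38. In the NFKBIE-wt PC Fos stood at 303 ± 282, an SD close to the mean. Together the 10 genes took 0.284% to 0.566% of all assigned counts in the 7 spleens that match their labels, 0.105% to 0.461% in the NFKBIE-wt PC, 0.0557% to 0.130% in the NFKBIE-ko PC and 0.0671% to 0.0902% in the 5 cultures.

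Within the PC most of the genes moved together from sample to sample. NFKBIE-ko PC replicate 1 was the highest of its group for all 10 genes and replicate 2 the lowest for all 10. Among the NFKBIE-wt PC samples replicate 2 was the highest for 8 genes and replicate 3 the lowest for 7. Replicate 1, with 917 CPM of Fos, was the lowest in Egr3 and Myc (9.79 and 404 CPM), and replicate 3 was the highest in Egr3 (22.1 CPM). On log2(CPM + 1) after subtraction of the group means, over the 20 libraries of all groups without both that go against their labels, Fos correlated with Fosb at r = 0.966 and with Jun at 0.898, Egr1 with Egr2 at 0.979 and with Fos at 0.838, and Egr3 with Fos at 0.0636. Jun correlated with Nr4a1 at 0.202, with Myc at 0.12 and with Egr3 at -0.193. These values are descriptions, since the points share libraries and the samples of a group are alike. In the NFKBIE-wt PC the order of the samples in Fos was also their order in the summed CPM of 8 granulocyte genes, which was 225, 396, 125 and 166 in replicates 1 to 4. In the NFKBIE-ko PC replicate 1 was highest in both, with 44.5 CPM of granulocyte genes against 28.6 to 33.2 CPM in the others, while replicate 2, the lowest in Fos, was not the lowest in these genes. The part of these cells in the Fos levels was not tested.

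The 250 bases before the start of each gene were read from GRCm39 and searched on both strands for the cyclic AMP response element core TGACG, the full element TGACGTCA, the AP-1 site TGANTCA, the EGR sites GCGTGGGCG and GCGGGGGCG, the CArG box of serum response factor and the kappa-B motif of NF-κB. The core lies within the full element, so a match of the latter would count for both. TGACG was present before 7 of the 10 genes and before 18% of 21770 promoters. The CArG box was present before 2 of the 10 (1.4% of all), the kappa-B motif before 2 (7.62%), an EGR site before 1 (2.9%), and TGANTCA and TGACGTCA before 0 (6.17% and 1.69% of all). Jun, Myc and Dusp2 had no match in this window. The promoters of Fos and Fosb, which moved most, and of Egr2, an EGR gene with a CArG box, are shown 5′ to 3′ on the strand of the gene. Capitals mark the matches, which are TGACG or its reverse complement in all 3, the kappa-B motif in Fos and Fosb, an EGR site in Fosb and the CArG box in Egr2. The Egr2 window overlaps an exon of the noncoding gene Gm66196 and lies within an intron of a longer Egr2 transcript, and neither the Fos nor the Fosb window overlaps an annotated exon. A match is a run of letters, not a bound site.
Fos, chr12:85520408-85520657, plus strand: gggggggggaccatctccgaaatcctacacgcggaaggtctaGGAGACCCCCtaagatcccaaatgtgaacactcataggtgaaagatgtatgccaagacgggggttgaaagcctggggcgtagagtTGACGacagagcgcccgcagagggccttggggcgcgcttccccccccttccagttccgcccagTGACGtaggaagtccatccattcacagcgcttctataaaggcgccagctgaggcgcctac
Fosb, chr7:19043977-19044226, minus strand: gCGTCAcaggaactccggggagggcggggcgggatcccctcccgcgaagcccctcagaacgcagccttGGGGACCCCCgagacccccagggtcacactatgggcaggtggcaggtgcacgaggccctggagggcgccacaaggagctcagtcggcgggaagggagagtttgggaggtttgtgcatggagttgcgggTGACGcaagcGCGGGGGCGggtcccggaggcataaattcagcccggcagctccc
Egr2, chr10:67373442-67373691, plus strand: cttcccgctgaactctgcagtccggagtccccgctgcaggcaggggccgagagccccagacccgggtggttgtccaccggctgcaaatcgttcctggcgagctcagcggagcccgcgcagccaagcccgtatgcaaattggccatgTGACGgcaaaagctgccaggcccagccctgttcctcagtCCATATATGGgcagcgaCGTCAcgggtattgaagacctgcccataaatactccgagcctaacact

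In NFKBIE-ko cells, where no library went against its label, 7 of the 10 genes were higher in the spleen than in culture and Egr3 was lower, against 8.79% and 6.3% of all genes tested in these directions (edgeR quasi-likelihood test, called at a Benjamini-Hochberg adjusted p under 0.05 with a log2 fold change past 1). The AP-1 genes led, with log2 fold changes of 9.50 ± 0.70 for Fosb (SE, adjusted p = 4.3e-05), 8.63 ± 0.33 for Fos (adjusted p = 3.4e-06), 6.04 ± 0.34 for Jun (adjusted p = 1.11e-05) and 1.57 ± 0.12 for Junb (adjusted p = 4.13e-05). Egr1 rose by 2.50 ± 0.24 (adjusted p = 0.000136), Dusp2 by 1.38 ± 0.20 (adjusted p = 0.000973) and Nr4a1 by 1.23 ± 0.23 (adjusted p = 0.00332) on the log2 scale. Egr3 had a log2 fold change of -1.24 ± 0.08 (adjusted p = 1.71e-05). Nr4a1 was not called in a fit of all 22 samples (adjusted p = 0.106). Egr2 (0.91 ± 0.13, adjusted p = 0.00108) and Myc (0.56 ± 0.10, adjusted p = 0.00361) passed the adjusted p but not the fold. In 9 genes every spleen lay above every culture, against 25.5% of all genes, and in Egr3 every spleen lay below, against 23.1%. Markers of host cells differed in the same comparison. Of the granulocyte genes 6 of 6 tested, of the myeloid genes 10 of 12 and of the T-cell genes 9 of 10 were higher in the spleens. The macrophage gene Adgre1 went the other way, with 20.6 to 28.7 CPM in the NFKBIE-ko cultures and 3.19 to 12 CPM in the spleens. S100a8, which marks granulocytes, was at 0 CPM in all 3 NFKBIE-ko cultures and at 20.5 to 74.0 CPM in the spleens. The part of these cells in the result was not tested.

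In NFKBIE-wt cells 0 of the 10 genes were called between spleen and culture when all libraries entered, and 0 of all 12332 genes, which is 0% in either direction (edgeR). At an unadjusted p below 0.05 there were 0 of the 10, and 9 higher and 48 lower of all genes beyond the fold, and DESeq2 called 0 of the 10. Each of these groups held a library that resembled the other. Without both libraries, 5 of the 10 genes were higher in the spleen (against 3.09% of all genes) and Egr3 was lower (against 2.72%). Fosb then had a log2 fold change of 9.11 ± 0.51 (SE, adjusted p = 0.00112), Fos 8.40 ± 0.43 (adjusted p = 0.000756), Jun 5.44 ± 0.88 (adjusted p = 0.0256), Egr1 1.83 ± 0.34 (adjusted p = 0.0327), Dusp2 1.43 ± 0.30 (adjusted p = 0.0426) and Egr3 -1.16 ± 0.22 (adjusted p = 0.0331). With all libraries the values of Fos and Fosb were 1.33 ± 2.15 and 1.65 ± 2.23. Junb had 1.43 ± 0.38 without both libraries (adjusted p = 0.0804) and was not called. These NFKBIE-wt groups then held 3 and 2 samples.

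In NFKBIE-ko cells Fos (log2 fold change 4.24 ± 0.62, adjusted p = 0.000967), Fosb (2.59 ± 0.56, adjusted p = 0.00348) and Jun (2.14 ± 0.18, adjusted p = 9.21e-06) were higher in the PC than in culture, 3 of 10 against 17.3% of all genes, and 0 of 10 were lower, against 5.8% (edgeR, with 0 lower at an unadjusted p below 0.05 and 0 by DESeq2). Egr1 (0.58 ± 0.83), Dusp2 (0.56 ± 0.39), Junb (0.17 ± 0.27) and Nr4a1 (-0.04 ± 0.39) were not called, and neither was Egr3 (-0.95 ± 0.45, adjusted p = 0.106), which was called without NFKBIE-ko PC replicate 1 (-1.43, adjusted p = 0.00135). In a fit of all 22 samples, which shares the spread of the NFKBIE-wt groups, Fos, Fosb and Jun had adjusted p of 0.0655, 0.295 and 0.16 here and Egr3 alone was called (-1.01, adjusted p = 0.0336). In NFKBIE-wt cells with all libraries only Egr3 was called, with -1.26 ± 0.36 (adjusted p = 0.0461, and from 0.0761 to 0.118 without any 1 sample other than the library labelled in vitro replicate 3), 1 of 10 against 3.36% of genes lower, and 0 of 10 were higher, against 5.55% (0 higher at an unadjusted p below 0.05 and 0 by DESeq2). Without the library labelled in vitro replicate 3, 4 genes were higher, against 11.2% of all genes, with 7.61 ± 1.63 for Fos (adjusted p = 0.0147), 7.40 ± 1.99 for Fosb (adjusted p = 0.0303), 4.37 ± 1.35 for Jun (adjusted p = 0.0473) and 1.37 ± 0.43 for Dusp2 (adjusted p = 0.0464). Egr3 stood at -1.54 ± 0.31 (adjusted p = 0.00991), 1 of 10 against 5.18% lower. In these comparisons 12 of 12 myeloid genes tested in NFKBIE-ko and 9 of 12 in NFKBIE-wt cells with all libraries, 11 without the library labelled in vitro replicate 3, were higher in the PC. Every granulocyte gene tested in NFKBIE-ko cells was also higher, among them S100a8 (10.5 ± 0.67, edgeR adjusted p = 4.15e-06). In NFKBIE-wt cells no granulocyte gene was called with all libraries. Without the library labelled in vitro replicate 3 all tested except Mpo were higher, among them S100a8 (7.73 ± 0.96, edgeR adjusted p = 0.00235). The part of the myeloid cells and granulocytes was not tested.

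Between the sites in the mouse, NFKBIE-ko cells held more immediate-early RNA in the spleen than in the PC. Of the 10 genes 6 were higher in the spleen, against 6.46% of all genes, and 0 were lower, against 15.6% (edgeR, with 0 lower at an unadjusted p below 0.05 and 0 by DESeq2). Fosb differed by 6.97 ± 0.67 (SE, adjusted p = 2.14e-05), Fos by 4.45 ± 0.44 (adjusted p = 2.14e-05), Jun by 3.96 ± 0.29 (adjusted p = 3.93e-06), Egr1 by 1.98 ± 0.63 (adjusted p = 0.0224), Junb by 1.46 ± 0.21 (adjusted p = 0.000273) and Nr4a1 by 1.32 ± 0.32 (adjusted p = 0.00544) on the log2 scale. Egr1 lost its call without PC replicate 3 or 4 or spleen replicate 1 or 2 (adjusted p from 0.054 to 0.0876). Without PC replicate 1 Egr2 (1.81, adjusted p = 0.00011) and Dusp2 (1.29, adjusted p = 0.00117) were called as well, and Dusp2 also without spleen replicate 2 (1.03, adjusted p = 0.0428). Of the myeloid genes 12 of 12 were lower in these spleens and of the granulocyte genes 4 of 6 tested higher, and the part of these cells was not tested. In NFKBIE-wt cells 0 of the 10 genes were called in either direction, against 3.21% of genes higher and 7.92% lower (edgeR, with Egr3 alone at an unadjusted p below 0.05 and 0 calls by DESeq2). Without the library labelled spleen replicate 4 there were 0 as well, against 4.41% and 10%, with Nr4a1 and Myc at an unadjusted p below 0.05. Fos differed by 0.41 ± 1.31 with and by 0.82 ± 0.80 without that library, and Fosb by 1.32 ± 1.42 and 1.73 ± 1.05.

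**Figure D2:**
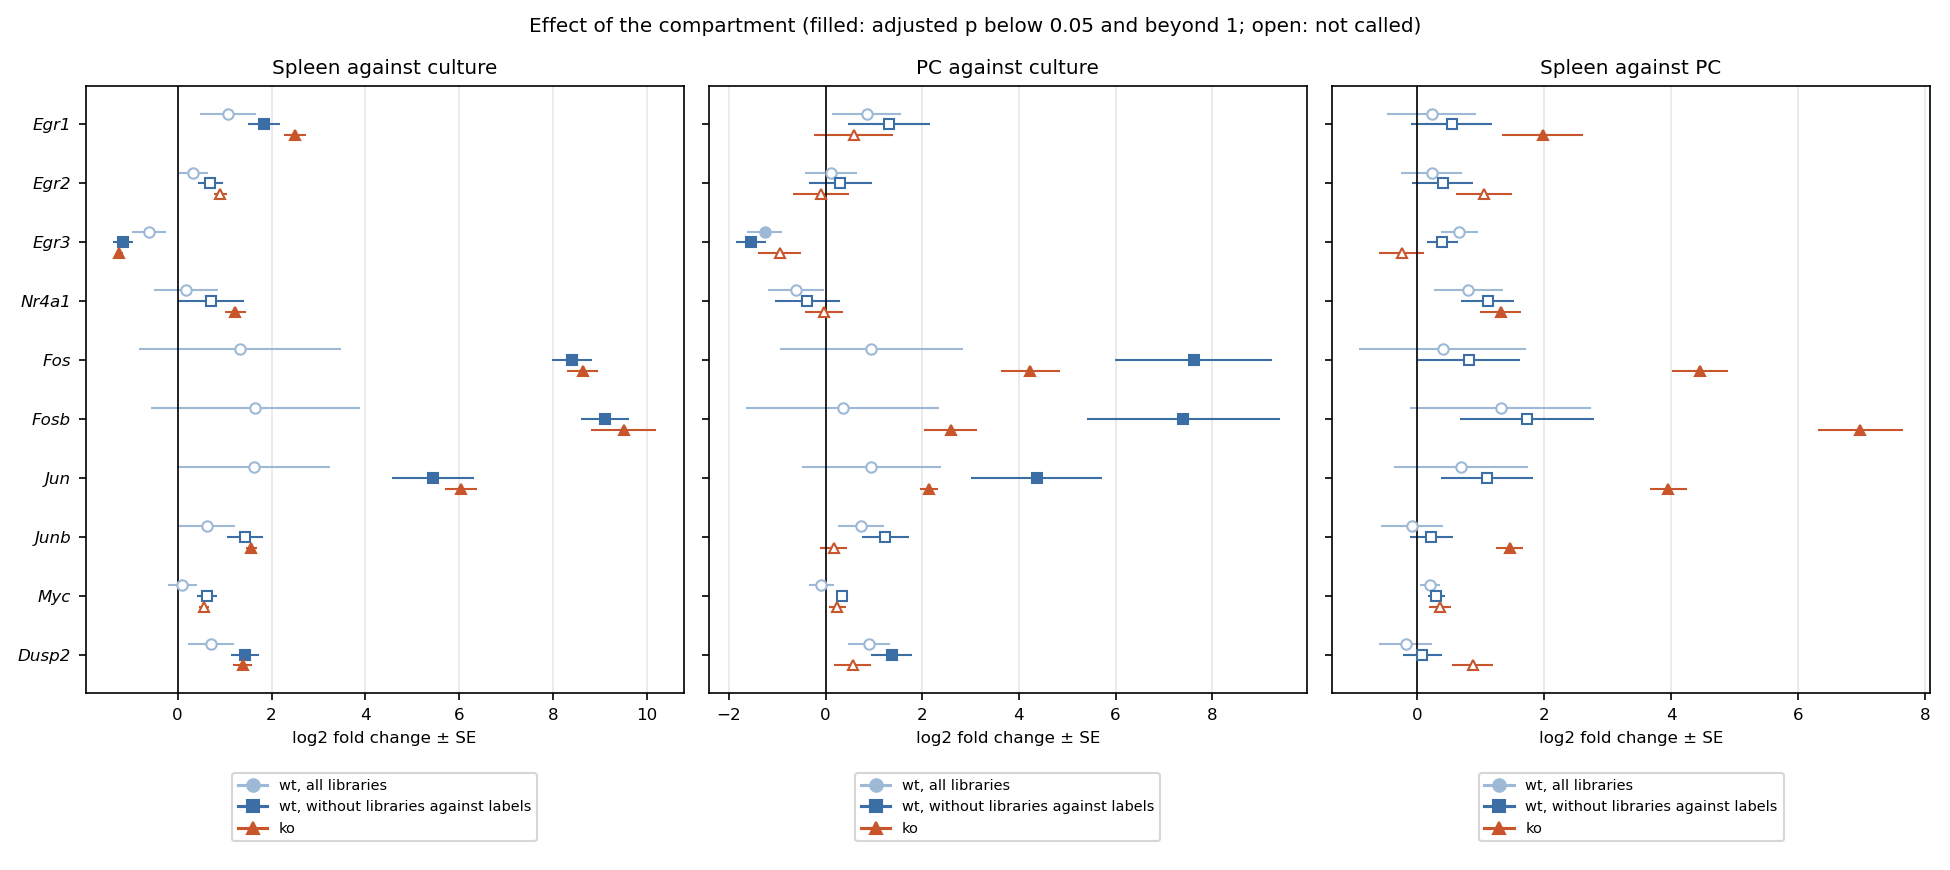
Log2 fold changes with SE of the 10 genes for spleen against culture, PC against culture and spleen against PC, in NFKBIE-wt cells with all libraries and without those that go against their labels, and in NFKBIE-ko cells; filled symbols passed the test. In NFKBIE-ko cells Fos rose by 8.63 from culture to the spleen and by 4.24 from culture to the PC.

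The genotype was compared within each compartment, to ask whether loss of IκBε changes these genes. In the PC 4 of the 10 were lower in NFKBIE-ko than in NFKBIE-wt cells, against 3.5% of all genes, and 0 were higher, against 9.97% (edgeR, with 0 higher at an unadjusted p below 0.05 and 0 by DESeq2). All 4 were FOS and JUN genes. Fosb had a log2 fold change of -5.67 ± 1.34 (SE, adjusted p = 0.0142), Fos -4.27 ± 1.04 (adjusted p = 0.0159), Jun -3.18 ± 0.78 (adjusted p = 0.0157) and Junb -1.26 ± 0.37 (adjusted p = 0.0269). Fos, Fosb and Jun did not overlap between the genotypes, as did 19.4% of all genes in this direction, whereas the ranges of Junb overlapped. Egr1 (-1.63 ± 0.95, adjusted p = 0.214), Egr2 (-1.16 ± 0.70, adjusted p = 0.231) and Dusp2 (-1.01 ± 0.43, adjusted p = 0.0997) missed the threshold, and so did Nr4a1 (-0.05 ± 0.46), Myc (-0.18 ± 0.16) and Egr3 (0.47 ± 0.45). The median over the 10 genes was -1.21, beside -0.00786 over all genes tested. Without NFKBIE-ko replicate 2 only Fos and Fosb were called (adjusted p 0.046 and 0.043), since Jun and Junb had adjusted p of 0.05 and 0.06. Junb was also lost without NFKBIE-wt replicate 1 or 2 or NFKBIE-ko replicate 3 or 4 (adjusted p from 0.0544 to 0.0675), and without NFKBIE-ko replicate 1, the highest of its group, Dusp2 was called as well (log2 fold change -1.43, adjusted p = 0.0217).

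Markers of other cells and some heat shock genes differed between the same PC samples. The summed CPM of the 8 granulocyte genes lay between 28.6 and 44.5 in NFKBIE-ko and between 125 and 396 in NFKBIE-wt samples, with 4 of 6 tested genes lower, and S100a8 at 4.87 to 9.73 against 45.9 to 129 CPM. The 12 myeloid genes summed to 3934 to 5813 CPM in NFKBIE-ko and 606 to 1833 CPM in NFKBIE-wt samples, with 9 of 12 higher, and the macrophage gene Adgre1 at 197 to 298 against 23.5 to 65.8 CPM. The NFKBIE-ko cultures held 20.6 to 28.7 CPM of Adgre1. Of 10 T-cell genes 6 were higher in NFKBIE-ko samples. Of the stromal and endothelial genes Col3a1 (-3.46 ± 0.555, edgeR adjusted p = 0.000873), Col1a2 (-2.81 ± 0.47, adjusted p = 0.00102) and Dcn (-2.14 ± 0.60, adjusted p = 0.0187) were lower. Col1a1 (-0.495) and Pecam1 (0.668) did not pass the fold. The summed CPM of these 8 listed genes lay between 102.7 and 121.5 in NFKBIE-ko and between 78.8 and 102.5 in NFKBIE-wt samples. Over all genes tested 9.97% were higher and 3.5% lower. Of 10 heat shock genes, which cells switch on under physical stress, Hspb1 (-1.05 ± 0.33, adjusted p = 0.028) and Dnajb1 (-1.04 ± 0.35, adjusted p = 0.0451) were lower. The summed CPM of the 10 lay between 3939 and 4641 in NFKBIE-ko samples, within the 3803 to 4793 of the NFKBIE-wt samples. Transcripts annotated as retaining an intron, a sign of unprocessed RNA, took 2.43 to 2.80% of the counts in NFKBIE-ko and 2.87 to 3.11% in NFKBIE-wt samples, without overlap. Among the NFKBIE-ko samples this share was highest in replicate 1 and lowest in replicate 2, as were the 10 genes, and among the NFKBIE-wt samples it was highest in replicate 3, the lowest in Fos. The part of these cells, of stress and of unprocessed RNA in the AP-1 result was not tested.

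In the spleen 0 of the 10 genes were called between the genotypes, against 1.4% of all genes higher and 1.59% lower (edgeR, with 0 at an unadjusted p below 0.05 and 0 by DESeq2). Fos differed by -0.24 ± 1.08 and Fosb by -0.04 ± 1.13 with all libraries. Without the library labelled NFKBIE-wt replicate 4 there were 0 calls as well, against 3.03% and 3.33%, and Fos (-0.65 ± 0.22, adjusted p = 0.0942) and Egr2 (-0.52 ± 0.19, adjusted p = 0.102) were at an unadjusted p below 0.05. Every NFKBIE-ko spleen then lay below every NFKBIE-wt spleen in Fos, as in 13.9% of all genes. In vitro 0 of the 10 were called, against 0.0341% of genes higher and 0% lower (edgeR, with 5 lower at an unadjusted p below 0.05, and Egr1 alone called by DESeq2). Fos had -7.54 ± 2.59 and Fosb -7.90 ± 2.73 with all libraries (adjusted p = 0.517 each), and -0.87 ± 0.38 and -0.84 ± 0.47 without the library labelled NFKBIE-wt replicate 3 (adjusted p 0.537 and 0.605). Without it 0 of the 10 were called, against 0.059% and 0.0169%, and Egr1 (-0.88 ± 0.12, adjusted p = 0.117) and Egr2 (-0.73 ± 0.18, adjusted p = 0.297) were at an unadjusted p below 0.05. In Egr1, Egr2, Fos and Myc every NFKBIE-ko culture lay below every NFKBIE-wt culture, with or without that library, as in 9.79% and 14.3% of all genes.

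**Figure D3:**
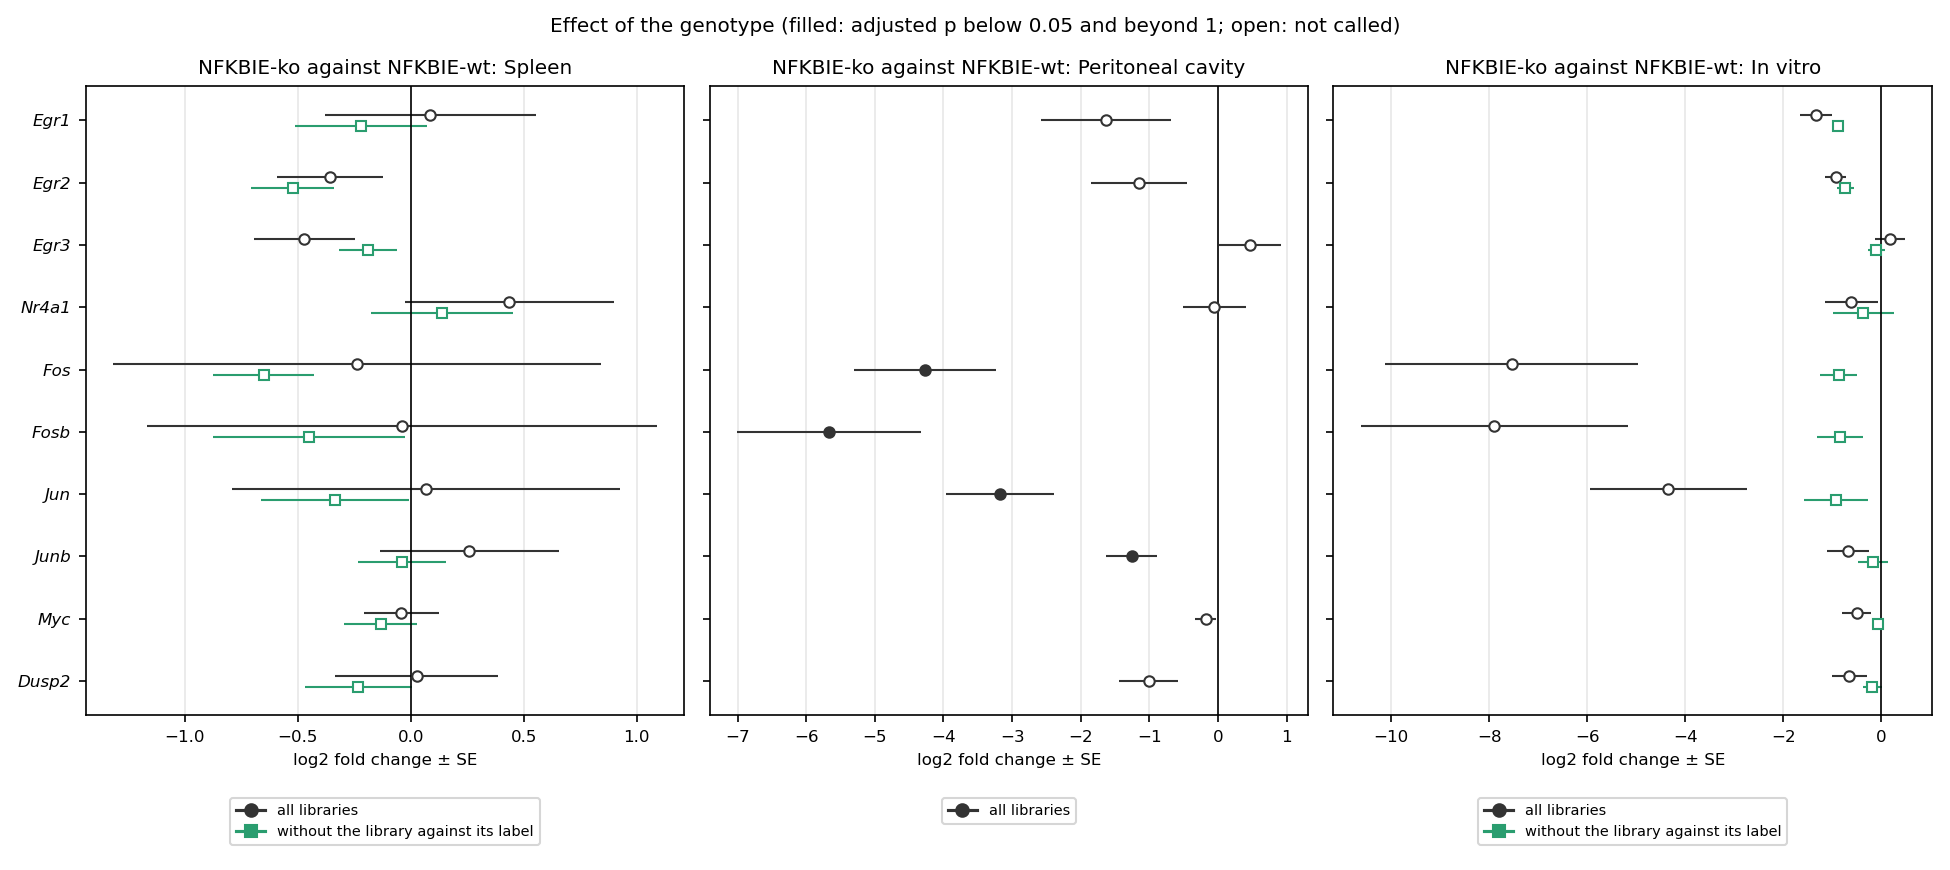
Log2 fold changes with SE of NFKBIE-ko against NFKBIE-wt samples for the 10 genes in the spleen, the PC and in vitro, with all libraries and without the library that goes against its label; filled symbols passed the test. In the PC Fos, Fosb, Jun and Junb lie at -4.27, -5.67, -3.18 and -1.26, and no symbol is filled in the spleen or in vitro.

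Whether the genotype acted differently in the spleen and the PC was tested in a fit of all 22 samples. With all libraries the differences of Fos (4.03 ± 1.95, SE) and Fosb (5.64 ± 2.16) had adjusted p of 0.253 and 0.14, and 0 of the 10 genes were called, against 0.436% of genes higher and 1.46% lower (edgeR, with 3 higher at an unadjusted p below 0.05, and 1 called by DESeq2). Without both libraries that go against their labels Fosb (5.24 ± 1.23, adjusted p = 0.0163) and Fos (3.63 ± 0.93, adjusted p = 0.0236) were called, 2 of 10 against 0.901% of genes higher, 0 were lower against 2.6%, and Jun (2.85 ± 0.87, adjusted p = 0.0543) was not called. For the spleen against in vitro the count was 0 with all libraries, against 0.222% and 0.133% (edgeR, with 3 higher at an unadjusted p below 0.05 and 2 called by DESeq2), and 0 without both, against 0.465% and 0.24% (0 at an unadjusted p below 0.05). For the PC against in vitro it was 0 with all libraries, against 2.9% and 0.251% (edgeR, with 0 at an unadjusted p below 0.05 and 0 by DESeq2), and 0 without both, against 2.99% and 0.494% (4 lower at an unadjusted p below 0.05). In the last of these Fosb stood at -4.84 ± 1.72 and Fos at -3.40 ± 1.22 (adjusted p 0.113 and 0.114). Fosb alone was called for the spleen against the PC without the NFKBIE-wt library labelled in vitro replicate 3 (5.63, adjusted p = 0.0433), and Fos and Fosb for the spleen against in vitro without NFKBIE-wt in vitro replicate 2 (7.86 and 8.41, adjusted p 0.0443 and 0.049). The latter fit keeps the library labelled in vitro replicate 3, at 969 CPM of Fos, beside replicate 1 at 4.34 CPM.

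Relatives of the 10 genes and other immediate-early genes were counted in the same comparisons. Of 6 relatives 5 had rows, Egr4 being the exception, and all 15 other immediate-early genes had. In NFKBIE-ko cells 12 of the 15 were higher in the spleen than in culture and 0 lower, against 8.79% and 6.3% of all genes, with a median log2 fold change of 1.70 beside 0.0502 over all genes. Among them were Klf2 (4.26 ± 0.16, adjusted p = 3.4e-06), a factor of lymphocyte trafficking, and Ppp1r15a (4.41 ± 0.23, adjusted p = 8.14e-06), which restores protein synthesis after stress. Of the same 15, 7 were higher and 0 lower in the PC than in culture (against 17.3% and 5.8%), and 7 higher and 0 lower in the spleen than in the PC (against 6.46% and 15.6%). In NFKBIE-wt cells 0 were higher in the spleen than in culture with all libraries (against 0%) and 7 without both that go against their labels (against 3.09%). In the PC 1 was higher than in culture with all libraries (against 5.55%) and 7 without the library labelled in vitro replicate 3 (against 11.2%), and 0 were lower in any of these 4 counts. Between the genotypes in the PC 4 were lower and 1 higher (against 3.5% and 9.97%), with Sgk1, a kinase downstream of growth factors (-1.85 ± 0.12, adjusted p = 1.45e-06), and Trib1, a pseudokinase (-1.22 ± 0.17, adjusted p = 0.000471), lower and Maff, a small MAF factor (1.17 ± 0.16, adjusted p = 0.000198), higher. In the spleen Maff was higher as well (1.26 ± 0.24, adjusted p = 0.0215, and 1.17 ± 0.25, adjusted p = 0.0179 without the library labelled NFKBIE-wt replicate 4).

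Fosl2, a FOS relative, was lower in NFKBIE-ko cells in the PC (-2.20 ± 0.28, adjusted p = 0.000423), where it held 31.2 to 53.9 CPM against 118 to 268 CPM. In the spleen it was lower once the library labelled NFKBIE-wt replicate 4 was left out (-2.56 ± 0.25, adjusted p = 0.00068), at 10.8 to 21.2 against 80.8 to 131 CPM, and with that library the value was -2.16 ± 0.81 (adjusted p = 0.156). It was lower in the spleen than in the PC of NFKBIE-ko cells (-1.35 ± 0.23, adjusted p = 0.000646), where Fos and Fosb were higher. Nr4a3, a relative of Nr4a1, was higher in NFKBIE-ko spleens without that library (1.76 ± 0.34, adjusted p = 0.0128) and was not called with it (0.81 ± 0.58, adjusted p = 0.439).

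**Figure D4:**
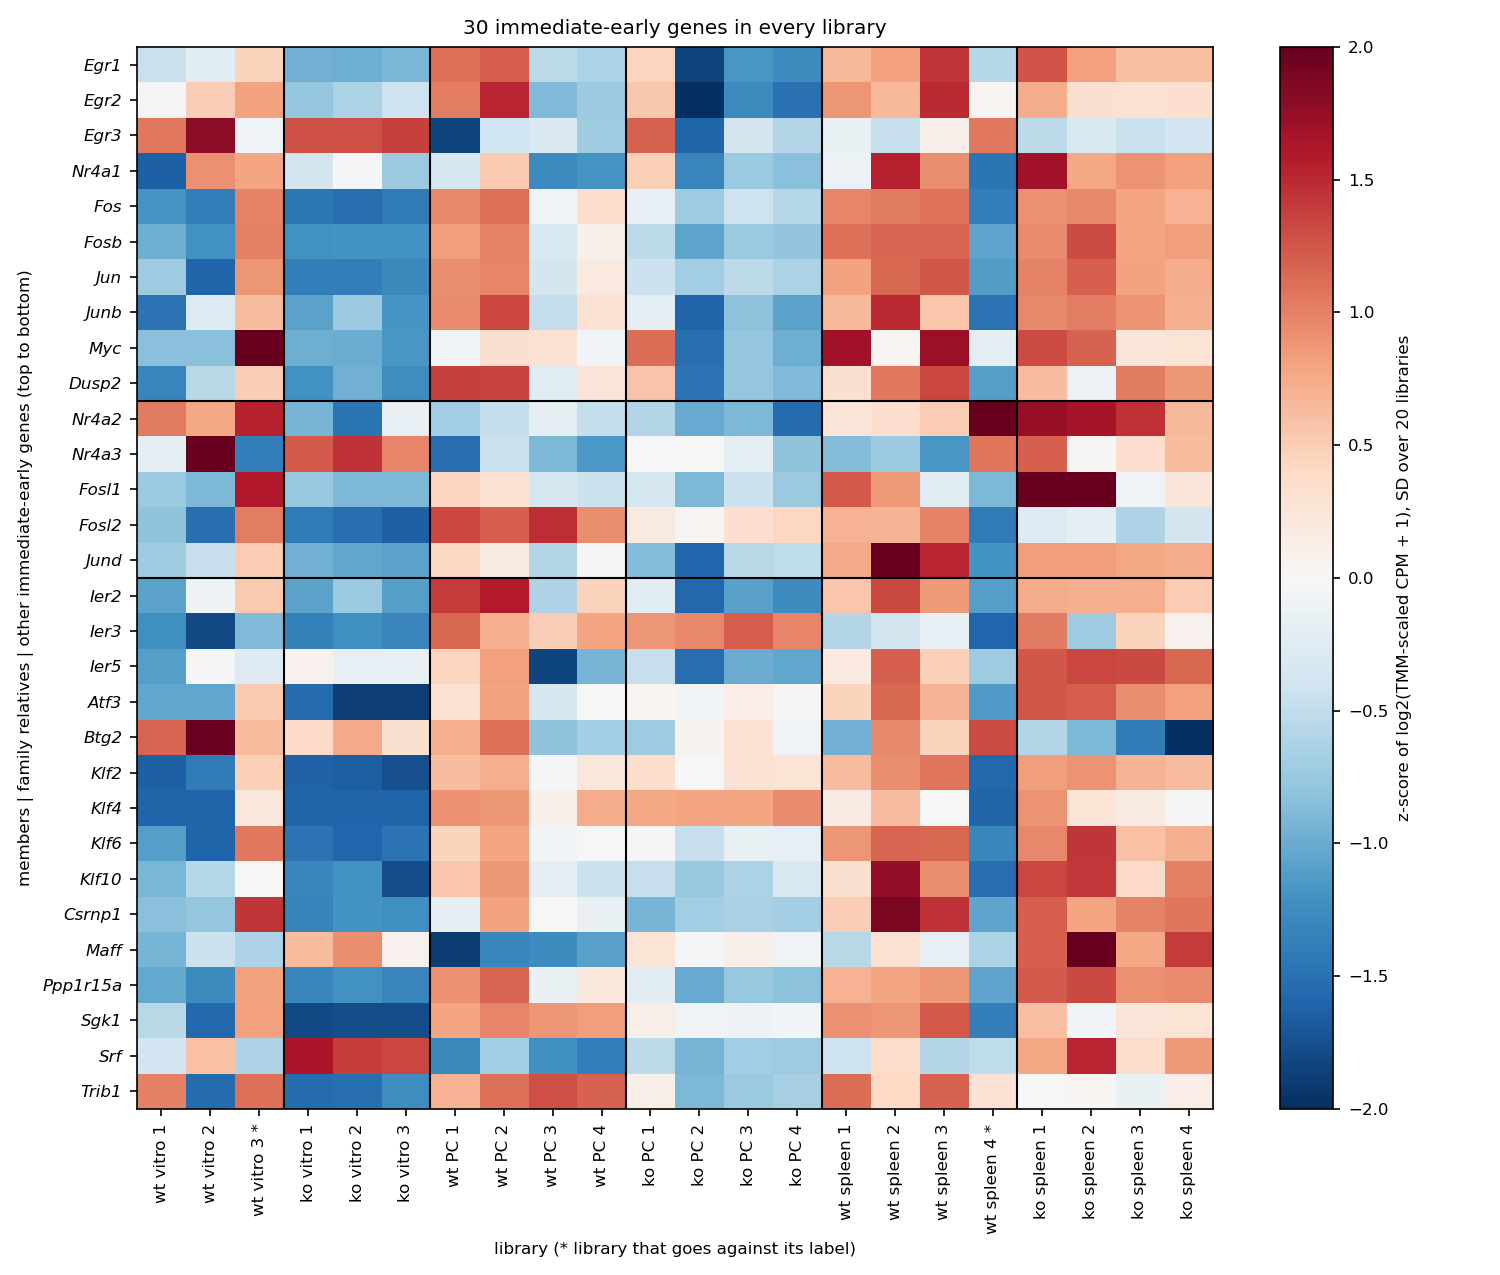
Heat map of 30 immediate-early genes (10 members, 5 relatives and 15 others) in the 22 libraries, as the z-score of log2(CPM + 1); stars mark the libraries that go against their labels. The starred in vitro library is high and the starred spleen library low for Fos (969 and 2.24 CPM), and within the PC the NFKBIE-wt replicates 1 and 2 stand out.

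Feedback genes damp the same signals. Of 12, 10 were tested in the comparison of NFKBIE-ko spleens with culture and 3 were higher and 1 lower, against 8.79% and 6.3% of all genes. Dusp1, a phosphatase of MAP kinases that is itself an immediate-early gene, was higher in these spleens than in culture (6.85 ± 0.21, adjusted p = 2.6e-06) and higher in the NFKBIE-ko PC than in culture (4.96 ± 0.28, adjusted p = 2.25e-06). It held 242 to 372 CPM in the spleens, 54.4 to 105 CPM in the PC and 2.40 to 2.58 CPM in the NFKBIE-ko cultures. Between the genotypes in the PC 3 of 11 were lower and 1 higher (against 3.5% and 9.97%), with the phosphatases Dusp5 (-1.66 ± 0.19, adjusted p = 0.000124) and Dusp6 (-1.65 ± 0.23, adjusted p = 0.000586) lower and Dusp4 (1.67 ± 0.35, adjusted p = 0.00295) higher. In the spleen 0 of 10 were called in either direction, against 1.4% of all genes higher and 1.59% lower. Without the library labelled NFKBIE-wt replicate 4 there were 0 as well, against 3.03% and 3.33%. Tnfaip3 and Dusp5 were at an unadjusted p below 0.05 (edgeR) with that library, and these and Dusp6 without it.

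Of 16 genes of B-cell activation 3 were higher and 0 lower in NFKBIE-ko spleens against culture, beside 8.79% and 6.3% of all genes, led by Cd69, an early surface marker of activation (3.68 ± 0.12, adjusted p = 2.6e-06), which held 269.6 to 327 CPM in these spleens and 20.6 to 24.3 CPM in the cultures. In the PC 4 were higher and 1 lower in NFKBIE-ko cells (against 9.97% and 3.5%), with the oxysterol receptor Gpr183 higher (2.33 ± 0.14, adjusted p = 1.45e-06) and the interleukin-2 receptor chain Il2ra lower (-2.36 ± 0.14, adjusted p = 1.45e-06). In the spleen the counts were 4 and 1 with all libraries (against 1.4% and 1.59%), with Gpr183 at 2.87 ± 0.28 and Il2ra at -2.42 ± 0.34 (adjusted p 0.00188 and 0.00677). Without the library labelled NFKBIE-wt replicate 4 they were 6 and 1 (against 3.03% and 3.33%), with 2.76 ± 0.29 and -2.59 ± 0.30 (adjusted p 0.000902 and 0.00145). Of 16 target genes of MYC 6 were higher and 0 lower in NFKBIE-ko spleens than in the PC (against 6.46% and 15.6%), with 1.19 ± 0.09 for Nop56, a nucleolar protein of ribosome assembly (adjusted p = 4.84e-06). None of the 16 was called between the genotypes in any compartment, with or without the libraries that go against their labels. In vitro only 0.0341% of all genes were called higher and 0% lower. Without the library labelled in vitro replicate 3 these shares were 0.059% and 0.0169%, so that 0 calls in vitro say little about these genes.

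Outside the list, the protein-coding genes whose pattern was most like the mean z-score of the 10 genes on log2(CPM + 1), by Pearson r over 22 samples, were Ier2 (0.931), Ccnl1 (0.929), Cd69 (0.929), Ppp1r15a (0.916) and Pnrc1 (0.895). Over the 20 samples without both libraries they were Ier2 (0.932), Ccnl1 (0.927), Cd69 (0.923), Ppp1r15a (0.912) and Ddit3 (0.89). After subtraction of the group means they were Nfkbiz (0.952), Ppp1r15a (0.922), Ier2 (0.922), Zfp36 (0.906) and Cd69 (0.906) over 22 samples, and Ppp1r15a (0.923), Nfkbiz (0.906), Cd69 (0.898), Zfp36 (0.896) and Ier2 (0.888) over 20. The values are descriptions, since the points share libraries. Heat shock genes differed in some of the same comparisons. Hspa1b, an inducible chaperone, held 5.44 to 107 CPM in the NFKBIE-ko spleens, 4.33 to 9.35 CPM in the NFKBIE-ko PC and 0.124 to 0.655 CPM in the NFKBIE-ko cultures. Of 10 heat shock genes 4 were higher in NFKBIE-ko spleens than in culture, against 8.79% of all genes, and 3 than in the PC, against 6.46%. The part of the heat shock genes in the results was not tested.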

How the data were processed

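RNA of 22 samples in 6 groups (NFKBIE-wt and NFKBIE-ko, in the spleen, the PC and in vitro) had been sequenced, and the deposited table holds estimated counts (expected counts) per transcript, which the authors made with Salmon 1.8 on GRCm39, per the submitters' processing notes. Of 62492 transcripts, each above 0 in at least 5 samples, 62147 matched GENCODE M39 and were summed to 17023 genes and rounded. The other 345 held 0.6192% of the counts. With totals of 24036763 to 26581304 per sample, intervals and SE rest on the spread between samples, and the p-values measure that spread alone, since the labels do not say in all cases that samples came from separate animals. Spleen, PC and in vitro groups were taken from the sample titles.

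Gene sums were compared with edgeR 4.0.16 in R 4.3.3 (filterByExpr, TMM, robust quasi-likelihood test), with only both groups of a comparison in the fit, and with all 22 samples for differences between genotype effects. A gene was called at a Benjamini-Hochberg adjusted p below 0.05 over all genes tested and a log2 fold change past 1. Levels are TMM-scaled CPM. Alternatives were DESeq2 1.42.0, upper quartile scaling, no filter and a filter at 1 CPM, the most abundant transcript per gene, all samples in 1 fit, a replicate block and leaving out each sample, and, chosen after the data were seen, leaving out both libraries that go against their labels. The scripts were tested on simulated data. The genes described and the lists were chosen with earlier results of these data known. Named are the 10 genes, Nfkbie, from every list up to 3 called genes per comparison with the smallest adjusted p, the 5 genes most like the 10 and the defining gene of each cell type. Some items are not reported here.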

Additional observations from a re-analysis of the deposited data

Results flagged for a closer look

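Of 40 groups of 4 samples, 1 for each of the 10 genes in the spleen and PC of either genotype, 4 had a sample farther from the others than Dixon's 95% critical value allows, and chance flags about 1 in 20 groups. The library labelled NFKBIE-wt spleen replicate 4 held 2.24 CPM of Fos and 2.17 CPM of Fosb, far below the other NFKBIE-wt spleens. NFKBIE-ko spleen replicate 1 held 38.1 CPM of Egr2 and 137 CPM of Nr4a1, above the other NFKBIE-ko spleens. The difference of the genotype effects (spleen minus PC), tested as an interaction without both libraries that go against their labels, was 5.235 for Fosb (edgeR adjusted p = 0.0163) and 3.631 for Fos (edgeR adjusted p = 0.0236) on the log2 scale. With all libraries neither difference passed the threshold.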

How the results depend on the processing

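Under the alternatives 504 counts of called genes stayed within 1.5 times the reported count and 28 did not, and no called gene reversed its direction. Of the values of single genes 2581 kept their side of the threshold, 98 of these with another sign, 46 became called and 33 lost the call, and except where named here the cause was not tested. For genotype in the PC, leaving out 1 sample gave 2 to 5 genes lower (2 without NFKBIE-ko replicate 2, 5 without NFKBIE-ko replicate 1), and the fit with a replicate block gave 0. Same-numbered samples of both genotypes did not deviate together in the PC (r from -0.11 to -0.00678). Nor did same-numbered spleen and PC samples (r from -0.144 to 0.0709 in NFKBIE-wt and from -0.0395 to 0.0864 in NFKBIE-ko cells). These values cannot show whether same-numbered samples share a mouse, since samples of a mouse need not deviate together. The NFKBIE-wt values also include the library labelled spleen replicate 4. The numbers are not taken as pairs, because the labels do not say which spleen and PC samples share a mouse, although some do. For genotype in vitro DESeq2 called 1 gene lower. For the PC against culture in NFKBIE-wt cells, the gene called lower was lost (0) under upper quartile scaling, without the filter, with the most abundant transcript and with a replicate block, leaving out 1 sample gave 0 to 1 lower and 0 to 4 higher (4 without the library labelled in vitro replicate 3), and leaving out both libraries gave 4 higher, or 5 with the other 20 samples in 1 fit. For the spleen against culture in NFKBIE-wt cells both of these gave 5 higher and 1 lower. For the PC against culture in NFKBIE-ko cells the fit of all 22 samples gave 0 higher and 1 lower, and leaving out 1 sample gave 0 to 1 lower (1 without NFKBIE-ko PC replicate 1). For the difference of the genotype effects between the spleen and the PC DESeq2 gave 1 higher, leaving out both libraries 2, and leaving out 1 sample 0 to 1 (1 without the NFKBIE-wt library labelled in vitro replicate 3). For that between the spleen and in vitro DESeq2 gave 2 higher, and leaving out 1 sample 0 to 2 (2 when NFKBIE-wt in vitro replicate 2 was left out). Both of these fits keep the library labelled in vitro replicate 3. The replicate block changed no other count by over 1.5 times. With 2 NFKBIE-wt cultures left that match their label, the spread in vitro rests on few samples, and the low counts of Fosb in culture limit the precision of its folds.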
